A study of Mus musculus with 3 samples.

Results

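JunD is a basic leucine zipper protein and a subunit of AP-1, the dimeric transcription factor that T cell receptor and co-receptor signals switch on. AP-1 dimers recognise short palindromic sites that are also contained in the longer Maf recognition elements. BACH2, a repressor of the same structural family, binds those elements as a dimer with small Maf proteins, so the DNA preferences of both factors overlap, and sites with strong JunD signal and no BACH2 peak are the places where the lists part. Regulatory T cells restrain immune responses, and BACH2 is known to support their formation and to restrain effector programmes in T cells.

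The regions described here are 442 JunD peaks of a list of 5237. They were chosen by measured values: a JunD score of at least 110, a width of at most 1000 bp, and no BACH2 peak sharing even 1 bp. The score minimum was passed by 1634 JunD peaks, of which 385 were wider than 1000 bp and were set aside. Of the remaining 1249 strong, narrow peaks, 807 overlapped a BACH2 peak and 442 did not, so the latter made up 35.4% (95% Wilson interval 32.8 to 38.1). In the whole JunD list 51.2% of peaks had no BACH2 peak, and since the score and the overlap both belong to the rule, nothing is read from that contrast. The 442 regions covered 281743 bp.

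The peaks come from chromatin immunoprecipitation and sequencing (ChIP-seq) of induced regulatory T cells. The cells began as CD4+ T cells sorted from the spleen of C57BL/6 wild type animals, 8 to 12 weeks old, and were cultured for 4 days on plates coated with antibodies to CD3ε and CD28, with TGF-β added. The labels list 1 BACH2 library, 1 JunD library and 1 input library, all from this genotype and culture, and the input was not analysed here. With 1 library per factor there is no replicate error, the read depth behind a peak is unknown, and every interval below covers only the counting of peaks. The culture is labelled as regulatory T cells, and peak positions do not measure expression, so its defining markers could not be checked.

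All 442 regions are among the 1634 JunD peaks that reached the score minimum, though most of the very highest scores belonged to wide peaks. The score of the 442 regions ran from 110.17 to 442.74, with a median of 144 (interquartile range 124 to 176), and 68 of them reached 200 and 17 reached 300. Their best rank in the JunD list was 94. Of the 93 JunD peaks with a higher score, 77 were wider than 1000 bp (64 with BACH2 and 13 without), and the other 16 were narrow peaks with BACH2. The strong, narrow peaks with BACH2 had a median score of 158 (128 to 219) and a maximum of 860. Median widths were 632 bp without BACH2 and 659 bp with it.

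**Figure D1:**
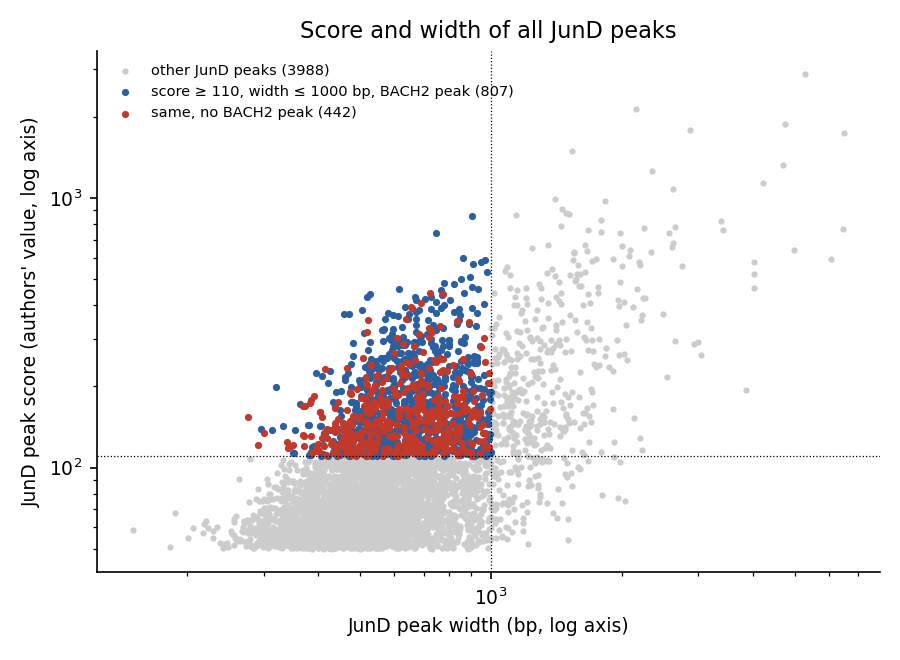
Width (bp, log axis) against the authors' score (log axis) for all 5237 JunD peaks, 1 point per peak, with dotted lines at a score of 110 and a width of 1000 bp. The 442 peaks without BACH2 (red) lie among the 807 with BACH2 (blue), and none of the red points exceeds a score of 442.74.

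The share of peaks without BACH2 varied with the score, which is a description because the rule uses both. Among strong, narrow JunD peaks it was 41.2% (36.3 to 46.3) at scores of 110 to 130, 39.8% at 130 to 150 and 39.4% at 150 to 200. It was 22.1% (17.2 to 27.9) at 200 to 300 and 19.3% (12.4 to 28.8) at 300 or more, where 17 of 88 peaks lacked BACH2. The share thus stayed level up to a score of 200 and was lower beyond it. By width it went from 54.1% (38.4 to 69.0) of the 37 peaks up to 400 bp to 27.4% (19.4 to 37.1) of the 95 peaks between 900 and 1000 bp. In between it was 45.3% at 400 to 500 bp and 30.1% at 800 to 900 bp. From 500 to 800 bp it stayed level, at 34.0%, 34.5% and 35.3%. A wider peak has more bases that a BACH2 peak can touch, and the part of width in these shares was not tested. Within the 442 regions, score and width were weakly related (Spearman's rho 0.18 across peaks of 1 library).

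**Figure D2:**
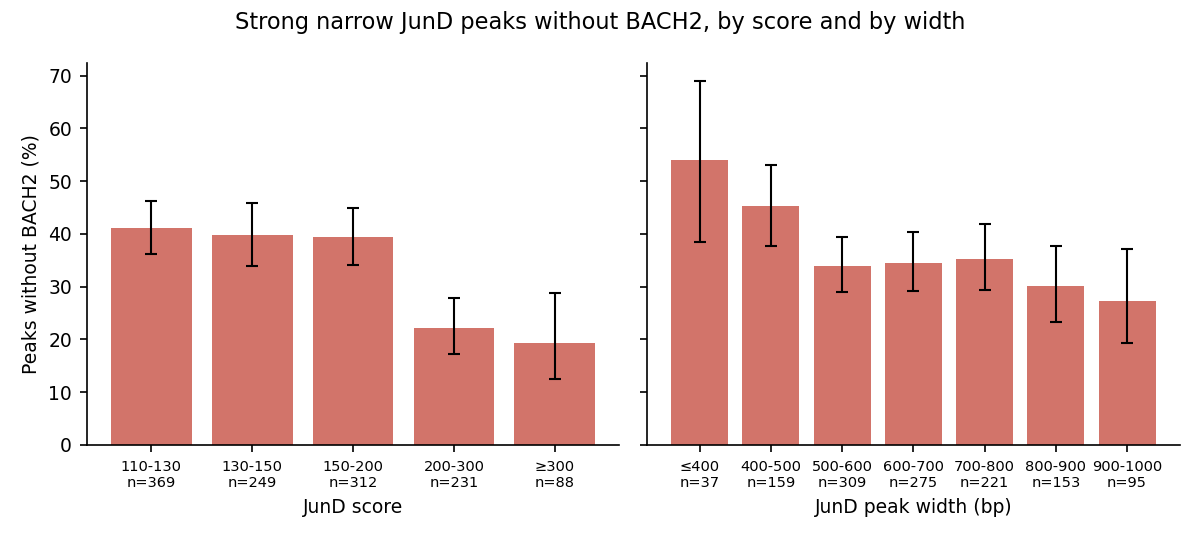
Share of strong, narrow JunD peaks that have no BACH2 peak (%), by score (left) and by width in bp (right). Bars are shares, error bars are 95% Wilson intervals, and n is the number of peaks. The share is near 40% up to a score of 200 and 22.1% and 19.3% above it.

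The strongest of these regions lay at chr4:94718540-94719263 (mm9), with a score of 442.74 and a width of 724 bp. A small JunD peak of score 51.66 sat 657 bp from its centre, and the nearest BACH2 summit was 16.6 kb away, in a peak of 8.43-fold enrichment. The region at chr1:60969962-60970738 was almost as strong, with a score of 440.8. It stood in a crowded stretch, with 14 further JunD peaks and 13 BACH2 summits within 100 kb, and its nearest BACH2 peak was 4.50 kb away with a fold enrichment of 3.31. Of the 7 JunD peaks within 20 kb of it, 2 overlapped BACH2.

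The third, at chr17:85277060-85277748, had a score of 406.97 and no other JunD peak closer than 79.2 kb. Its nearest BACH2 summit lay 20.5 kb away, with a fold enrichment of 10.9. The fourth, at chr9:64858331-64858986, had a score of 392.93 and was more isolated still in the JunD list, at 186 kb from the next JunD peak. A BACH2 peak of 9.37-fold enrichment lay 11.8 kb from it. These regions are single JunD peaks with a BACH2 peak called in the vicinity and none called at the site.

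The fifth, at chr3:142021738-142022395 with a score of 391.31, had no BACH2 summit within 100 kb, the nearest being at 108 kb. It had 1 JunD neighbour, of score 65.06, at 2.27 kb. The sixth, at chr7:107739646-107740284 with a score of 357.07, is the opposite case, because a BACH2 peak of 8.52-fold enrichment began 123 bp beyond its edge. That BACH2 peak overlapped the adjoining JunD peak, whose score was 136.72 and whose centre was 596 bp away. As listed, the BACH2 peak thus overlapped the weaker of 2 adjoining JunD peaks and lay just outside the stronger one. Whether these 2 JunD peaks are separate binding sites was not tested.

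The next 6 in score covered the same range of surroundings. The region at chr3:37191501-37192021, with a score of 353.09 and a width of 521 bp, was the narrowest of the 12 strongest and had a BACH2 summit at 8.69 kb. The region at chr9:65049150-65049986, with a score of 349.67, lay 5.41 kb from a JunD peak of score 330.13 that overlapped BACH2. The region at chr6:129130370-129131261, with a score of 346.16, lay 2.37 kb from the centre of a JunD peak of score 261.3 that was 3045 bp wide and had no BACH2, and had 15 JunD peaks and 12 BACH2 summits within 100 kb.

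The region at chr13:49777144-49777905, with a score of 334.24, had neither a JunD peak nor a BACH2 summit within 100 kb, and both neighbours lay 125 kb off. The region at chr6:86421898-86422617, with a score of 329.55, had a small JunD neighbour at 656 bp, of score 83.03. Its nearest BACH2 summit was 75.9 kb away and belonged to one of the strongest BACH2 peaks, with a fold enrichment of 17.8 and rank 145 of 9133. The region at chr15:59484299-59485031, with a score of 319.5, had a BACH2 summit at 2.12 kb and 11 BACH2 summits within 100 kb.

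Of these 12 regions, 6 had another JunD peak within 2.5 kb, each weaker than the region itself, and 1 of those 6 neighbours overlapped BACH2. The 12 were picked for the highest scores, which partly sets that their neighbours were weaker. Over all 442 regions another JunD centre lay within 2 kb of 14.0% and within 5 kb of 26.9%. A BACH2 summit lay within 10 kb of 5 of the 12, between 10 and 25 kb of 4, and more than 75 kb from 3. Over all JunD peaks a separate BACH2 summit lay within 10 kb of 41.1%. No gene is named for any region, because neither list pairs peaks with genes and the gene and promoter tables at hand are GRCm38, another build than mm9. For the same reason no sequence of these regions is shown, and no motif was searched.

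**Figure D3:**
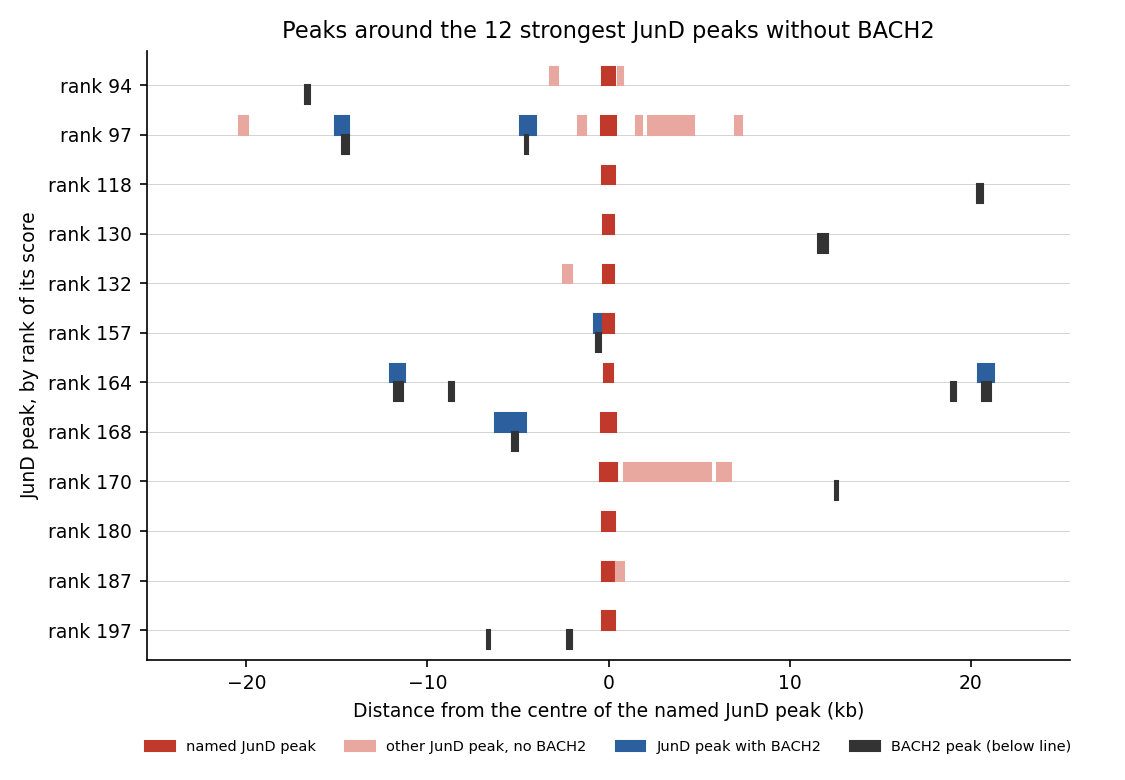
JunD peaks (above each line) and BACH2 peaks (below it) within 25 kb of the 12 strongest regions, drawn to scale by distance in kb from the region's centre, 1 line per region, labelled by its rank in the JunD list. Rank 180 has no other peak in the window, and rank 118 has only a BACH2 peak near 20 kb. Others sit beside further JunD peaks without BACH2 (rank 94, rank 97, rank 170) or beside JunD peaks with BACH2 (rank 157, rank 168).

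At the lower limit of the rule, the last regions to be included had scores of 110.51 (chr15:59351979-59352498), 110.39 (chr1:89652043-89652651) and 110.17 (chr10:128154514-128155003). The first to be left out, which met the other conditions, had scores of 109.97 (chr11:21054551-21055501), 109.95 (chr9:20692225-20692872) and 109.63 (chr1:157882990-157883597). No gap in score separates the peaks on either side. Their nearest BACH2 summits lay 3.56, 67.4 and 32.9 kb away on the inner side, and 17.4, 9.65 and 26.9 kb away on the outer side.

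Most of the 442 regions, like most other narrow JunD peaks, had a BACH2 peak in the wider neighbourhood. From the centre of a region to the nearest BACH2 summit the median distance was 23.1 kb (interquartile range 5.96 to 69.4 kb). A summit lay within 10 kb of 145 regions, or 32.8% (28.6 to 37.3), against 41.1% for a separate, non-overlapping BACH2 summit over all JunD peaks. Within 100 kb it was 362 regions, or 81.9% (78.0 to 85.2). A separate summit within 100 kb was found at 88.2% of strong, narrow peaks with BACH2. Among narrow peaks of score under 110 it was found at 78.8% without BACH2 and 88.4% with it. The BACH2 peak nearest to a region had a median fold enrichment of 5.71 and a median −log10 q of 11.9, close to the medians of the whole BACH2 list, 5.75 and 11.8.

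Strong JunD peaks that carried BACH2 had a shorter median distance to a further BACH2 peak. Leaving out the BACH2 peaks that overlap them, those 807 peaks had a median distance of 11.4 kb (3.14 to 44.5 kb), and 47.2% (43.8 to 50.7) had such a summit within 10 kb. The 442 regions were lower by 14.4 percentage points (95% Newcombe interval of the difference, −19.9 to −8.75). At least 5 separate BACH2 summits within 100 kb were found at 19.2% of the regions and at 36.2% of the peaks with BACH2, a difference of −17.0 points (−21.7 to −11.9). No summit within 100 kb was found at 18.1% and 11.8%. The rule read the same BACH2 list, so these values describe the surroundings of the regions and were not tested.

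Weaker JunD peaks without BACH2 were set beside the regions in the same way. The 2051 peaks of score under 110, width up to 1000 bp and no BACH2 had a median distance to BACH2 of 26.5 kb, and 31.4% (29.5 to 33.5) had a summit within 10 kb. The difference from the strong regions was 1.36 percentage points (−3.32 to 6.28), an interval that holds 0 and also differences of several points either way. At least 5 separate BACH2 summits within 100 kb were found at 22.0% of these weaker peaks. The regions differed from them by −2.76 points (−6.63 to 1.54). Among weaker peaks with BACH2 that share was 36.0%. No summit within 100 kb was found at 21.2% of weaker peaks without BACH2, a difference of −3.06 points (−6.84 to 1.16). Across the 442 regions, JunD score and distance to BACH2 had a Spearman's rho of −0.031. The points share 1 library of each factor, and the range of scores is cut at 110.

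**Figure D4:**
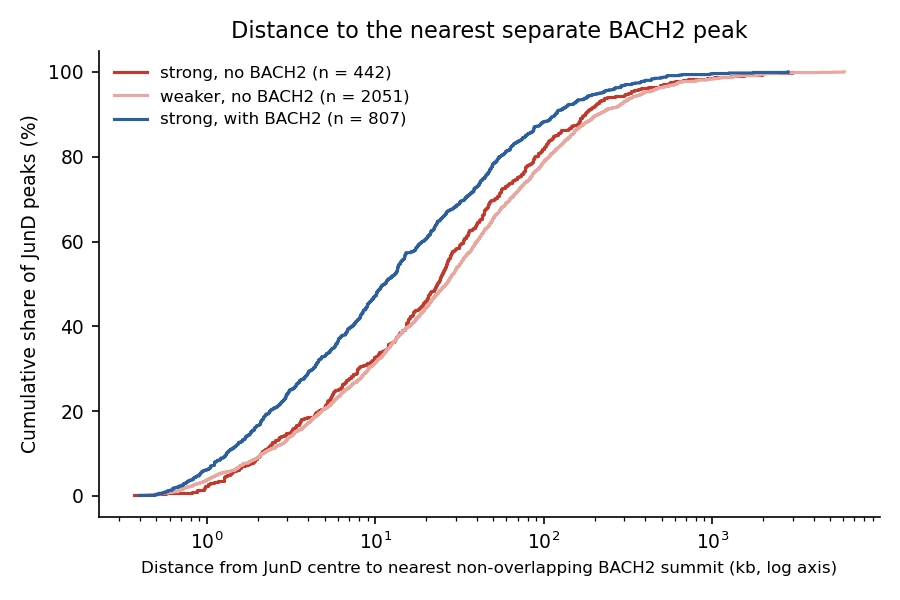
Cumulative share of JunD peaks (%) against the distance from the JunD centre to the nearest BACH2 summit that does not overlap the peak (kb, log axis). The curves of strong (red, median 23.1 kb) and weaker (pink, median 26.5 kb) peaks without BACH2 run together, and that of strong peaks with BACH2 (blue, median 11.4 kb) lies to the left.

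A few regions only just lacked a BACH2 peak. The edge of a BACH2 peak came within 1 kb of 28 of the 442, or 6.33%, within 500 bp of 8 and within 100 bp of 2. A separate BACH2 edge within 1 kb was found at 6.14% of weaker peaks without BACH2, a difference of 0.19 points (−2.03 to 3.03). It was found at 12.0% of strong peaks with BACH2, a difference of −5.68 points (−8.78 to −2.31). Within 500 bp the regions were at 1.81% and weaker peaks without BACH2 at 3.61%, a difference of −1.80 points (−3.06 to 0.07). Strong peaks with BACH2 were at 6.32% within 500 bp, a difference of −4.51 points (−6.60 to −2.24). The smallest gaps were 29 bp at chr14:122222233-122222736 (score 135.7) and 38 bp at chr16:91522664-91523205 (score 117.49), and by summit the latter was the nearest of all, at 369 bp. The BACH2 peaks there had fold enrichments of 6.50 and 4.50. The third nearest by summit was the chromosome 7 region of score 357.07 described above. The 28 regions had a median score of 148, and their BACH2 neighbours a median fold enrichment of 5.81, against 144 and 5.71 for all 442.

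At the other end, 6 of the 442 regions had no BACH2 summit within 1 Mb. A separate summit within 1 Mb was found at 98.6% of the regions and 98.3% of weaker peaks without BACH2. That difference was 0.30 points (−1.34 to 1.28). Strong and weaker peaks with BACH2 were at 99.6% and 99.3%. The farthest region lay at chr15:89140253-89140815, with a score of 207.19 and 2964 kb to the nearest BACH2 summit. It had no other JunD peak within 100 kb. The next 2 were neighbours on chromosome 1, at 72283326 to 72284049 (score 148.08) and 72301309 to 72302095 (score 134.47), 1990 and 1972 kb from BACH2. Both shared a nearest JunD peak of score 316.63, which also had no BACH2. Among the 79 regions with a BACH2 gap over 100 kb, 40.5% had any other JunD peak within 100 kb, against 90.8% of the 120 with a gap of 1 to 10 kb. The distances to the nearest BACH2 and to the nearest JunD peak were related across the 442 regions (Spearman's rho 0.47). In 167 of the 442 the nearest JunD peak itself overlapped BACH2, so both distances can run to the same place. The relation, and the contrast of 40.5% with 90.8%, are thus partly built in. The part that regional peak density has in both distances was not tested.

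Crowding by other JunD peaks was measured next. Another JunD centre lay within 10 kb of 151 of the 442, or 34.2% (29.9 to 38.7), against 34.4% (31.3 to 37.8) of strong peaks with BACH2, a difference of −0.29 points (−5.71 to 5.27), and 34.2% of all JunD peaks. Within 5 kb the shares were 26.9% and 21.7%, a difference of 5.24 points (0.31 to 10.3), and within 1 kb they were 6.33% and 3.47%, a difference of 2.87 points (0.43 to 5.74). Weaker peaks without BACH2 had another JunD centre within 10 kb in 29.4%, within 50 kb in 53.2% and within 100 kb in 66.4%. The regions were at 34.2%, 64.5% and 75.8%, higher by 4.81 (0.09 to 9.75), 11.2 (6.19 to 16.1) and 9.43 points (4.77 to 13.7). Strong peaks with BACH2 were at 65.7% within 50 kb and 77.3% within 100 kb. The regions differed from them by −1.20 (−6.77 to 4.27) and −1.53 points (−6.56 to 3.29), and both intervals hold 0. Within 2 kb the difference from them was 3.62 points (−0.10 to 7.65). Against weaker peaks without BACH2 it was 1.51 (−0.66 to 4.31) within 1 kb and 1.45 points (−1.84 to 5.25) within 2 kb. Within 5 kb it was 5.37 points, with a lower bound of 1.04. Each set was compared at 6 distances, no adjustment was made, and whether adjoining calls are separate binding sites was not tested. In 80.5% of the 442 regions the region's own score exceeded that of its nearest JunD neighbour, a share that the score minimum of the rule partly sets. For strong peaks with BACH2 this share was 82.7%, a difference of −2.11 points (−6.76 to 2.29).

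The largest of the 20 differences in share from strong peaks with BACH2 concerned the nearest JunD neighbour. This neighbour overlapped BACH2 in 167 of the 442, or 37.8% (33.4 to 42.4), and in 58.7% (55.3 to 62.1) of strong peaks with BACH2, a difference of −21.0 points (−26.5 to −15.2). It did so in 43.2% (41.1 to 45.4) of weaker peaks without BACH2, a difference of −5.46 points (−10.4 to −0.39). In weaker peaks with BACH2 it was 57.3%. Among neighbours within 2 kb, 12 of 62 at the regions had BACH2, or 19.4% (11.4 to 30.9). At strong peaks with BACH2 it was 52 of 84, or 61.9% (51.2 to 71.6). From 2 to 10 kb the shares were 38.2% and 63.4%, from 10 to 50 kb 43.3% and 60.3%, and beyond 50 kb 40.1% and 53.1%. The contrast was thus widest at short range. Weaker peaks without BACH2 gave 32.2% (26.8 to 38.1) within 2 kb, 45.6% from 2 to 10 kb, 47.1% from 10 to 50 kb and 43.4% beyond. Median scores of the neighbours within 2 kb were 81.7 for the regions and 82.3 for strong peaks with BACH2. Of the 52 strong peaks with BACH2 whose neighbour within 2 kb also had BACH2, 2 shared a single BACH2 peak with that neighbour and 50 did not. Peaks that are each other's nearest neighbour are both counted here. Neighbouring peaks are not independent, and the rule read the same BACH2 list, so this contrast is also a description.

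**Figure D5:**
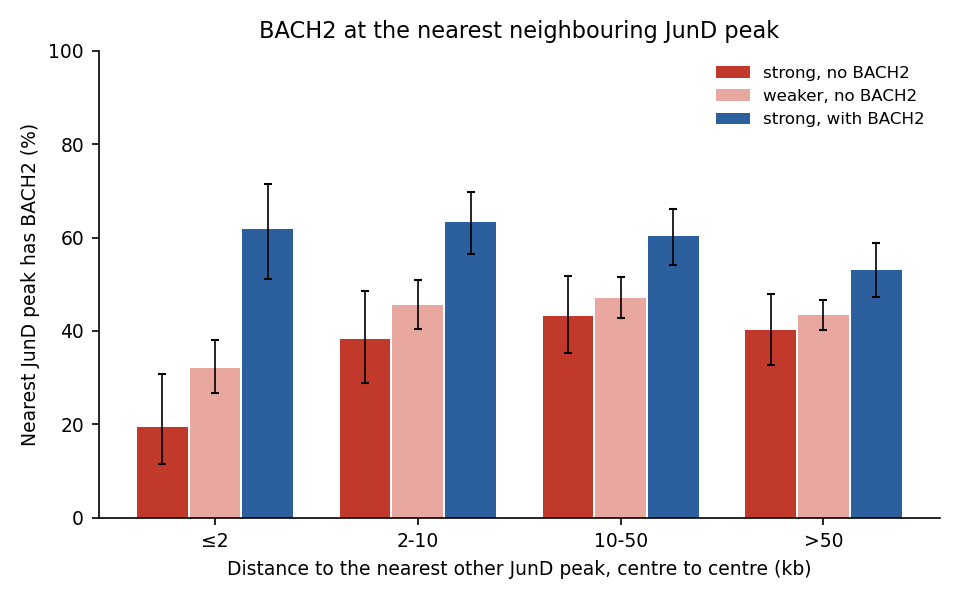
Share of JunD peaks whose nearest other JunD peak overlaps BACH2 (%), by the distance between centres (kb), for strong peaks without BACH2 (red), weaker peaks without BACH2 (pink) and strong peaks with BACH2 (blue). Bars are shares and error bars 95% Wilson intervals. Within 2 kb the shares are 19.4%, 32.2% and 61.9%.

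Grouping was counted among the 442 regions alone, and no other set of JunD peaks was joined for comparison. Counting JunD peaks of any kind, 34.2% of the regions had another within 10 kb, as did 34.2% of all JunD peaks. When regions with centres at most 10 kb apart were joined, 407 of the 442 stood alone, 32 formed 16 pairs and 3 formed a single trio. The trio lay on chromosome 11 within 4.92 kb, at 69568276 to 69568667 (score 183.82), 69571879 to 69572439 (score 194.8) and 69572590 to 69573196 (score 131.19). No other JunD peak and no BACH2 peak fell within that stretch, and the nearest BACH2 summit was 88.7 kb from its first region. At 50 kb there were 5 trios and 35 pairs. Of those trios, chosen here after their values were seen, one on chromosome 1 (135975381 to 136008051) held 4 JunD peaks and no BACH2 peak, with the nearest summit 85.3 kb from a region. Another on chromosome 1 (36366374 to 36380502) also held 4 JunD peaks and no BACH2 peak, though a BACH2 summit lay 1.76 kb from one of its regions. The trios on chromosome 6 (128710586 to 128789137) and chromosome 7 (105710427 to 105731670) each held 4 JunD peaks and 1 BACH2 peak.

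All 19 autosomes and the X chromosome held at least 1 of these regions. Chromosome 11 had the most, with 52, followed by chromosome 1 with 42 and chromosome 7 with 38, and these 3 held 29.9% of the regions and 23.3% of the strong, narrow peaks with BACH2. The share of strong, narrow JunD peaks without BACH2 was highest on chromosome 7, at 50.7% (39.6 to 61.7). It was 45.6% (33.4 to 58.4) on chromosome 17, 44.1% (35.4 to 53.1) on chromosome 11 and 43.5% (31.9 to 55.9) on chromosome 3. It was lowest among the autosomes on chromosome 18, at 21.1% (11.1 to 36.3), and the autosomal median was 33.1%. The interval of 17 of the 19 autosomes held the share over all chromosomes, 35.4%. The X chromosome had 2 of 10. In the whole JunD list, the share without BACH2 was 63.1% on chromosome 7, 55.0% on chromosome 11 and 44.0% on chromosome 18. Over all chromosomes it was 51.2%. Chromosomes 7 and 11 thus lay above the overall share for strong, narrow peaks and for all JunD peaks, and chromosome 18 below it. The whole list had 478 peaks on chromosome 11, 436 on chromosome 1 and 317 on chromosome 7.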

How the data were processed

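The members and lists were chosen with earlier results of these data known. The submitters' processing notes name the aligner Bowtie 0.12.9 and the genome build mm9 (NCBIM37). The sources used here do not give the control library, pooling or caller version. The JunD list the authors deposited has a score for each peak on an unstated scale, with a lowest value of 50, and its peaks carry the name of the caller MACS. The BACH2 list the authors deposited has a fold enrichment, a −log10 p-value and a −log10 q-value for each peak, as read from the narrowPeak layout, and a summit. The integer score deposited beside them repeats the −log10 q (times 10, decimals dropped) in 100% of peaks and was left aside. These are the authors' values and were used only within their own list.

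An overlap was at least 1 bp. Distances run from the centre of the JunD peak to the BACH2 summit or to another JunD centre, and gaps run between edges. Coordinates are mm9, counted from 1. Shares have Wilson 95% intervals and their differences Newcombe intervals, for the counting of peaks only. No p-value was computed, since peaks of 1 library are not replicates. The peaks named were the 12 of highest score, the 3 on each side of the score minimum, the 3 nearest to and the 3 farthest from a BACH2 summit, and the largest group within 10 kb. The planned gene starts, gene lists and motifs were not run, because the reference tables are GRCm38: peaks ran past its last gene on 8 of 20 chromosomes. The overlap and distance steps were tested on simulated data. Scripts ran under scipy 1.17.1, pandas 2.3.3 and numpy 2.4.6 in Python 3.11.15.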

Additional observations from a re-analysis of the deposited data

How the results depend on the processing

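The number of regions follows the score and width chosen: 732 at a score of at least 90, 191 at 150 and 292 at a width of at most 700 bp, against 442. It was between 390 and 577 under the other 5 alternatives. The share of strong, narrow JunD peaks without BACH2 moved from 35.4% to 39.5% at a score of 90, to 30.3% at 150, and to 40.5% when only BACH2 peaks with a −log10 q of at least 5 counted, which added 64 regions. The median distance to BACH2 moved from 23133.5 bp to 18283 bp with no limit on width. The share with another JunD peak within 10 kb moved from 34.2% to 38.7% at a score of 150, 29.1% at a width of 700 bp and 42.8% with no limit on width, and it was 26.9% within 5 kb and 64.5% within 50 kb. Leaving out chromosome 11 or chromosome 7, alternatives chosen after the data were seen, moved none of these 4 values beyond the interval of the main value, or beyond 1.5 times for the count. The alternatives for gene starts and motifs were not run. No paired analysis was possible because BACH2 and JunD have 1 library each. BACH2 sites below its caller's threshold are not in the list, so a region without a BACH2 peak may hold BACH2 signal that the list does not show.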
